A study of Mus musculus with 7 samples.

Results

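The 10 imprinted growth genes H19, Igf2, Igf2r, Meg3, Dlk1, Kcnq1ot1, Cdkn1c, Peg3, Mest and Grb10 were followed through the nascent RNA of GFI1+ intra-aortic hematopoietic cluster (IAHC) cells from the mouse aorta-gonad-mesonephros (AGM) region at E11.5. They were taken by name from the 55487 genes of the raw count table. All 10 have a row there, and 4 of them (H19, Meg3, Dlk1 and Grb10) are among the 10311 genes that pass the filter on low counts used by the study, which asks that 2 or more replicates of a condition reach 10 counts. Cells carrying a Gfi1:tomato reporter (strain label CD1/Gf1+) were sorted as CD31+cKIT+GFI1+ and kept overnight in compound E (compE), a gamma-secretase inhibitor that blocks the release of the active Notch fragment. All 3 groups therefore passed through the inhibitor before they were washed and split into small sets. The cells were then labelled for 4 hours with the uridine analog EU, in order to capture RNA made in that time. The Fc-JAG1 group (2 libraries, numbers 1 and 3) received recombinant JAGGED1, a Notch ligand, fused to an antibody Fc part during labelling. The compE group (2 libraries, numbers 1 and 2) had the inhibitor added back, and the washed-out group (washout, 3 libraries) had the solvent DMSO alone. The numbers are the embryo numbers of the labels and were treated by the study as biological samples. Each library came from a small set of sorted cells whose captured RNA was amplified before sequencing.

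Imprinted genes are transcribed mainly from the chromosome of a single parent, under the control of differentially methylated DNA that is set in the germ line. Many act on fetal growth: paternally expressed genes such as Igf2 tend to promote it, and maternally expressed genes such as Igf2r, Cdkn1c and Grb10 tend to restrain it. H19 is a maternally expressed long noncoding RNA next to Igf2, the growth factor with which it shares enhancers, and in adult mice the H19 and Igf2 region has been tied to the quiescence of hematopoietic stem cells. Dlk1, Meg3, Cdkn1c and other members belong to a network of imprinted genes that are coexpressed in growing tissues and in stem cells, and Dlk1 itself encodes a transmembrane protein of the Notch ligand family that lacks the domain through which the classical ligands activate the receptor.

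The sequences below give the parts of these loci that the values refer to. H19 hosts miR-675, which is cut from its first exon. The hairpin gene had 0 counts in all 7 libraries, as a row nested in H19. Both mature forms (RefSeq, GRCm38.p6) lie on the minus strand of chromosome 7, at chr7:142577112-142577133 for miR-675-5p and chr7:142577078-142577099 for miR-675-3p, and capitals mark the seed, bases 2 to 8.
mmu-miR-675-5p: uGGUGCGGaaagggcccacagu
mmu-miR-675-3p: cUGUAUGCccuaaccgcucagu

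Start site windows of 300 bases (250 before the start and 50 after it) were found in RefSeq (GRCm38.p6) for 8 of the 10 genes, 15 windows in all, and not for H19 or Cdkn1c. They were searched on both strands for TGGGAA, the core of the site bound by RBPJ, the DNA-binding partner of active Notch, for TGACGTCA, the cyclic AMP response element (CRE), and for TATAAA. The RBPJ core was in 5 of the 15 windows, against 25.6% of 32817 windows of all genes, namely in 2 of the 4 windows of Igf2, in the second window of Meg3 and in 2 windows of Mest. Those 2 Mest windows lie 3 bases apart and hold the same match. The CRE was in 2 of 15, Meg3 and Peg3, against 1.79% of all windows, and TATAAA was in 1 of 15, Meg3, against 13.6%. Meg3 and Dlk1, neighbors within the imprinted cluster of chromosome 12, and Peg3 of proximal chromosome 7 are shown because Meg3 and Peg3 had their highest counts in compE libraries and Dlk1 was captured in all libraries but washout 3. Capitals mark the CRE and, in Meg3, the TATAAA matches, which begin 29 and 25 bases before the start on opposite strands and overlap each other. The CRE lies 57 bases before the start of Meg3 (chr12:109540746-109541045, plus strand) and 178 bases before that of Peg3 (chr7:6730370-6730669, minus strand), and the window of Dlk1 (chr12:109452573-109452872, plus strand) holds none of the 3 motifs. A match in letters is not a bound site. The windows shown were chosen by their counts, so a CRE beside high compE counts is no result. Mest, whose top library was also compE 2, has no CRE in its windows. Cdkn1c, with its top library in compE 1, has no window.
Meg3: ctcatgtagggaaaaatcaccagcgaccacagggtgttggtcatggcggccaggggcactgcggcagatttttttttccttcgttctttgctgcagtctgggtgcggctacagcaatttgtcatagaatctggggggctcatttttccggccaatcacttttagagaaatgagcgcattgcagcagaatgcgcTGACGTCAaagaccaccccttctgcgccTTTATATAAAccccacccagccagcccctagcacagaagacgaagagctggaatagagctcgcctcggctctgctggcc
Dlk1: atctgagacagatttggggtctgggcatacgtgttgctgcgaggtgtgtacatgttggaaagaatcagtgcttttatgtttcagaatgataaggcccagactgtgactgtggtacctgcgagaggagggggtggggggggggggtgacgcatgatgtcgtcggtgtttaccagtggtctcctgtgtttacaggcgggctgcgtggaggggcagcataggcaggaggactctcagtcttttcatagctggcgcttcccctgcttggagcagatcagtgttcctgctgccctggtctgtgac
Peg3: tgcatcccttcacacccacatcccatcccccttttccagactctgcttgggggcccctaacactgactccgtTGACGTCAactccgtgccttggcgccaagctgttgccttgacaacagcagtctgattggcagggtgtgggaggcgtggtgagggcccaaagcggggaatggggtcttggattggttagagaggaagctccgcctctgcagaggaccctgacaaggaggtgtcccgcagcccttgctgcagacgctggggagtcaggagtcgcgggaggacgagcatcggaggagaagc

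The libraries held between 21652927 and 33974693 counts, and differed more in the number of genes captured than in depth. Fc-JAG1 1, compE 2 and washout 2 had at least 10 counts for 20.9% to 22.3% of all genes, and the other 4 libraries for 11.3% to 14.6%. Of the 10 imprinted genes, 3 and 2 reached 10 counts in Fc-JAG1 1 and 3, 4 and 5 reached it in compE 1 and 2, and 2, 5 and 1 reached it in washout 1, 2 and 3. The most members, 5, were thus in compE 2 and washout 2, which had many genes. CompE 1, with few genes, held 4, and Fc-JAG1 1, with many, held 3. Of 62 other imprinted genes with a row in the table, 27 and 22 reached 10 counts with Fc-JAG1, 24 and 32 with compE, and 17, 29 and 20 in the washout. The part of this difference between libraries in the results was not tested. In bulk libraries, fewer cells that transcribe a gene and less nascent RNA per cell cannot be told apart. Markers of the sorted cells were present, with 13 of 16 past the filter and a summed level of 2456 and 4314 CPM with Fc-JAG1, 3073 and 2897 CPM with compE, and 4511, 2216 and 4086 CPM in the washout (CPM, counts scaled to library size with edgeR's TMM factors). Runx1 and Kit, which define IAHC cells, were among the most abundant. Gfi1 itself had 2504 and 0 counts with Fc-JAG1, 0 and 0 with compE and 0, 12 and 2477 in the washout. The gene behind the sort was thus not captured in every library. Pecam1, the gene of the sort marker CD31, had 11 counts in Fc-JAG1 3 and 18 in washout 1, against at least 1186 elsewhere. Of the same 16, Itga2b had 8 counts in washout 1 and Ptprc had 3 in washout 3. Of the markers of other cells, 5 of 10 for macrophages, 4 of 10 for primitive erythrocytes, 3 of 12 for endothelium and 1 of 12 for mesenchyme passed the filter, and none of 12 for epithelium and liver or 10 for neural cells.

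For Igf2 and Kcnq1ot1 the table gives no measurement. Igf2, the insulin-like growth factor that binds IGF1R and is cleared by IGF2R, had 0 counts in all 7 libraries, and so did Kcnq1ot1, the antisense RNA that silences its neighbors on the paternal chromosome. In GENCODE M21 on GRCm38, 3 of the 16051 bases of Igf2 (chr7:142650766-142666816) lie in no other gene, since Gm49394, Igf2os and Mir483 overlap it, and 0 of the 93092 bases of Kcnq1ot1 (chr7:143203458-143296549), which lies inside Kcnq1. The authors took their annotation of GRCm38 from Ensembl, and its gene models may differ from these. In the whole table, 114 of 12996 genes with no base of their own had any count (0.877%), against 25094 of 42145 genes with at least 1 such base (59.5%). Where the whole overlap was on the opposite strand the share was 48 of 6165 (0.779%), so reads were assigned over whole gene bodies without regard to strand and dropped where genes overlap. The 3 rows over Igf2, Gm49394, Igf2os and Mir483, were at 0 in all libraries too, and Kcnq1 had 13 and 11 counts with Fc-JAG1, 39 and 24 with compE and 12, 5 and 10 in the washout. Of all 72 imprinted genes examined, 12 had 3 or fewer bases of their own and all 12 were at 0 in every library, among them Snurf, Nnat, Ndn and Peg13, against 5 of the other 60.

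**Figure D1:**
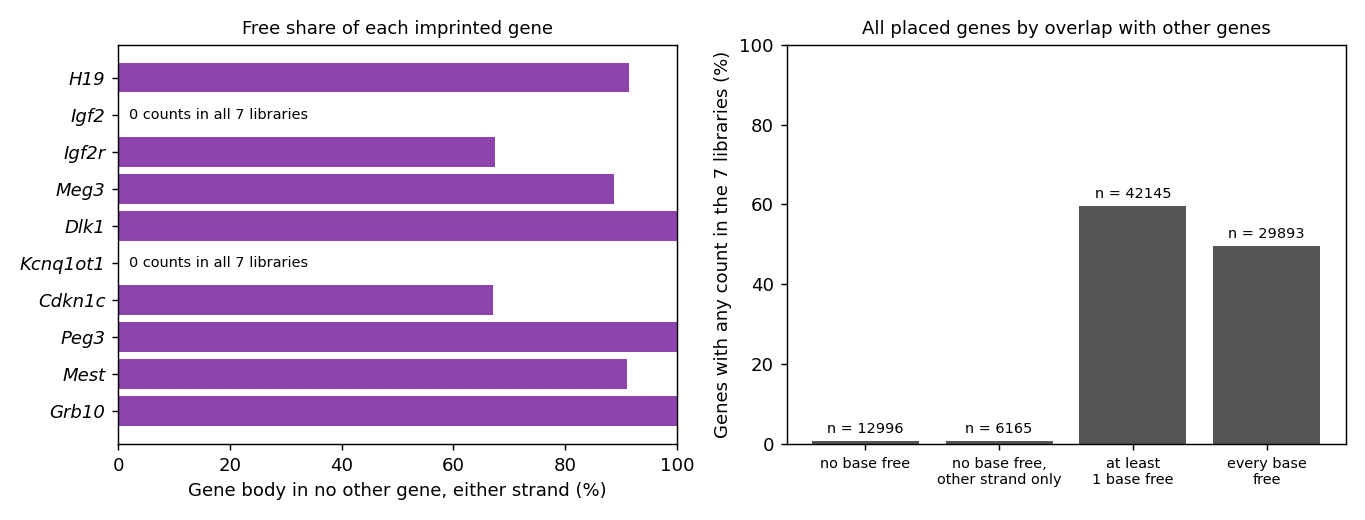
Left, share of each imprinted gene body (%) that lies in no other annotated gene on either strand; right, share of genes (%) with any count in the 7 libraries, by how much of the gene is free of other genes (the second class is part of the first, and the fourth of the third). Igf2 has 3 free bases and Kcnq1ot1 has none, and of all genes with no free base 0.877% have any count.

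The other members have room for reads of their own. H19 (chr7:142575529-142578143) has 2390 of 2615 bases free, Meg3 27276 of 30726, Mest 22684 of 24919, Igf2r 58905 of 87259 and Cdkn1c 1820 of 2712, and Dlk1, Peg3 and Grb10 overlap no other gene. The part of Igf2r that is lost lies under Airn, the antisense RNA that silences it on the paternal chromosome. The genes nested in Meg3 and Mest are mainly small RNA genes, and each of these had 0 counts.

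**Figure D2:**
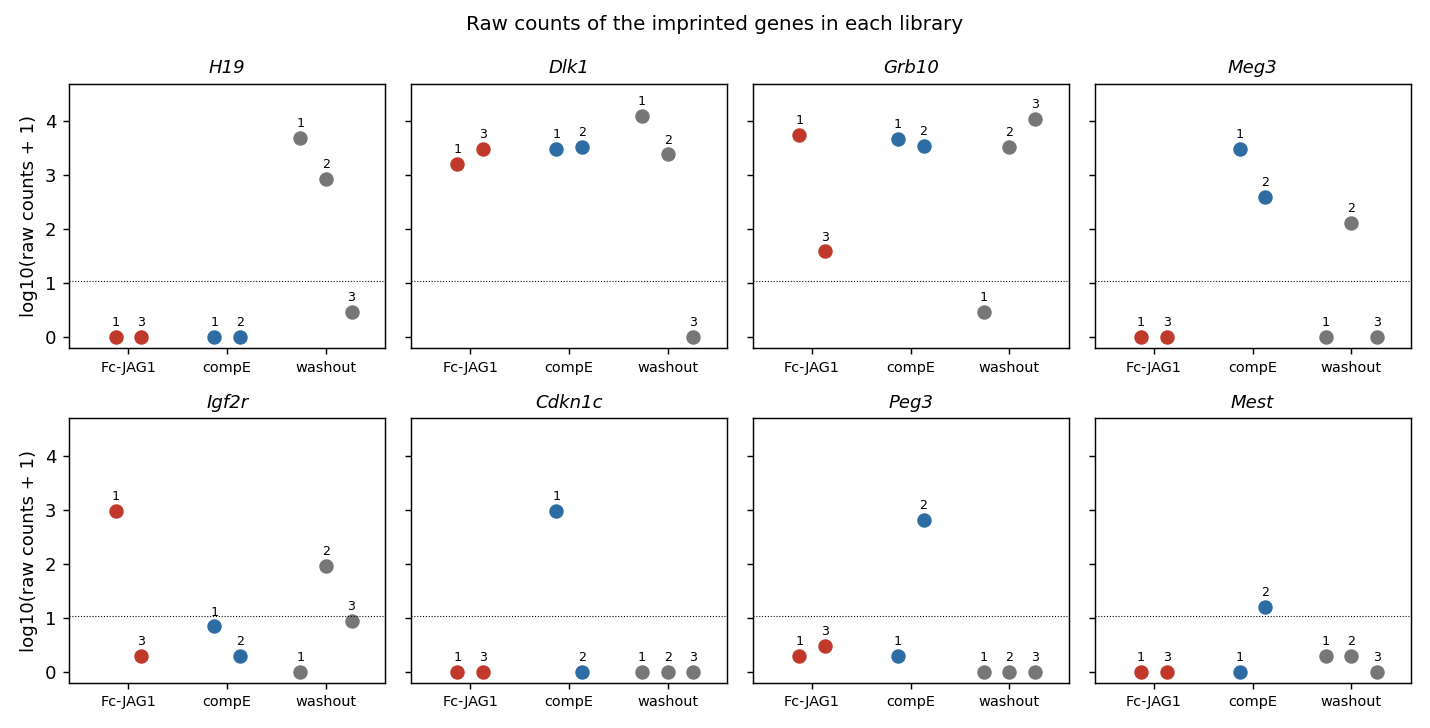
Raw counts per library, as log10(counts + 1), for the 8 members with any count; each point is a library, labelled with its embryo number, and the dotted line marks 10 counts. H19 lies above that line in washout 1 and 2 only, Meg3 in compE 1, compE 2 and washout 2, and Cdkn1c and Peg3 in a single compE library each.

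H19, the long noncoding RNA that gives the group its name, was captured in the washout alone. It had 0 and 0 counts with Fc-JAG1 and 0 and 0 counts with compE, against 4888, 870 and 2 counts in washout 1, 2 and 3, or 284, 24.1 and 0.0713 CPM (mean 103 ± 157 CPM, SD, n = 3). Neither Fc-JAG1 nor compE overlapped the washout, yet the lowest washout library, with 2 counts, is below the floor of 3 counts that a library with 0 counts allows. With each library at 0 set to that floor, H19 was at least 980-fold lower with Fc-JAG1 and at least 1047-fold lower with compE than the washout mean, and at least 115-fold and 123-fold lower without washout 1, which held 92.1% of its summed CPM. Of the 10311 genes tested, 30 (0.291%) were at 0 in all 4 Fc-JAG1 and compE libraries, and 9 of them (0.0873%), H19 included, had at least 1 count in each washout library. H19 passed the filter through the washout alone, as must any gene at 0 in those 4 libraries. These shares are thus a description and no test, and the calls of H19 below carry the same limit.

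By edgeR's quasi-likelihood test H19 was called in neither comparison. SE, here and below, is the absolute log2 fold change over the square root of that test's F value. It is not a standard error of the fitted coefficient. The log2 fold change was −15.30 (SE 8.70, adjusted p = 0.836) for Fc-JAG1 over washout and −14.85 (SE 7.09, adjusted p = 1.00) for compE over washout, sizes that depend on the small count added to zeros. This test called 0 of 10311 genes (0.0% of those tested) in each of the 3 comparisons, with 526 genes at an unadjusted p under 0.05 for Fc-JAG1 over washout, 273 for compE over washout and 289 for Fc-JAG1 over compE, and H19 is among the 273. The Wald test of DESeq2, the tool of the study's methods, called H19 lower in both, at −10.23 on the log2 scale (adjusted p = 0.0132) with Fc-JAG1 and −13.70 (adjusted p = 0.00315) with compE. It called 4.74% of tested genes lower with Fc-JAG1 and 3.67% lower with compE, and 6.85% and 6.79% had CPM wholly below the washout.

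The DESeq2 call of H19 depended on single libraries. With Fc-JAG1 it was lost without Fc-JAG1 1 (log2 fold change −3.22, adjusted p = 0.804), without washout 1 (−6.70, adjusted p = 0.171) and without washout 2 (−10.38, adjusted p = 0.0196), in the last case since only washout 1 then had 10 counts and a call also needs 10 counts in 2 replicates. With compE it was lost without compE 1 (−12.36, adjusted p = 0.434), without washout 1 (−9.56, adjusted p = 0.141) and, by the same count rule, without washout 2 (−14.62, adjusted p = 0.0167). H19 is abundant in embryonic mesenchyme, so the mesenchyme markers are set beside it: the 12 genes summed to 6.59 and 0.466 CPM with Fc-JAG1, 21.0 and 0.232 CPM with compE and 1.74, 7.95 and 32.6 CPM in washout 1, 2 and 3. Only Acta2, a smooth muscle actin, passed the filter, and it did so through the washout alone. It had 1 and 0 counts with Fc-JAG1, 527 and 1 with compE and 0, 52 and 416 in the washout. DESeq2 called it lower with Fc-JAG1 (−10.54, adjusted p = 0.00328), as it did H19. In washout 1, where H19 was highest, Acta2 had 0 counts. Col1a2, a collagen gene of the same list that failed the filter, had 24 there and at most 2 in any other library. It was the only gene of the list above 2 counts in washout 1. Pdgfrb, with 488 counts in washout 3 and 229 in Fc-JAG1 1, had 1 there. Twist1, with 186 in washout 2, had 0 there. The 10 macrophage markers summed to 508 and 151 CPM with Fc-JAG1, 103 and 356 CPM with compE and 522, 431 and 421 CPM in washout 1, 2 and 3. Both compE libraries and Fc-JAG1 3 were below the washout. DESeq2 called 3 of the 5 tested, Mertk, Ctss and Lyz2, lower with compE, and none with Fc-JAG1. Mertk passed the filter through the washout alone. Csf1r (0.40 with compE) and Cd68 (−0.10) were not called. Adgre1, which failed the filter, had 3361 counts in compE 2, against at most 476 in a washout library. Of the 3 tested endothelial markers DESeq2 called Gja5, a gap junction gene of arterial endothelium, lower with Fc-JAG1 (−6.94, adjusted p = 0.00165). Gja5, too, passed the filter through the washout alone. Tek and Vwf went the other way with Fc-JAG1 (3.19 and 3.66 by DESeq2) and were not called. Summed, the 12 endothelial markers gave 69.0 and 1.74 CPM with Fc-JAG1 and 3.76 and 47.2 CPM with compE. The washout had 1.16, 48.4 and 2.64 CPM. The part of these cells in the H19 values was not tested.

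**Figure D3:**
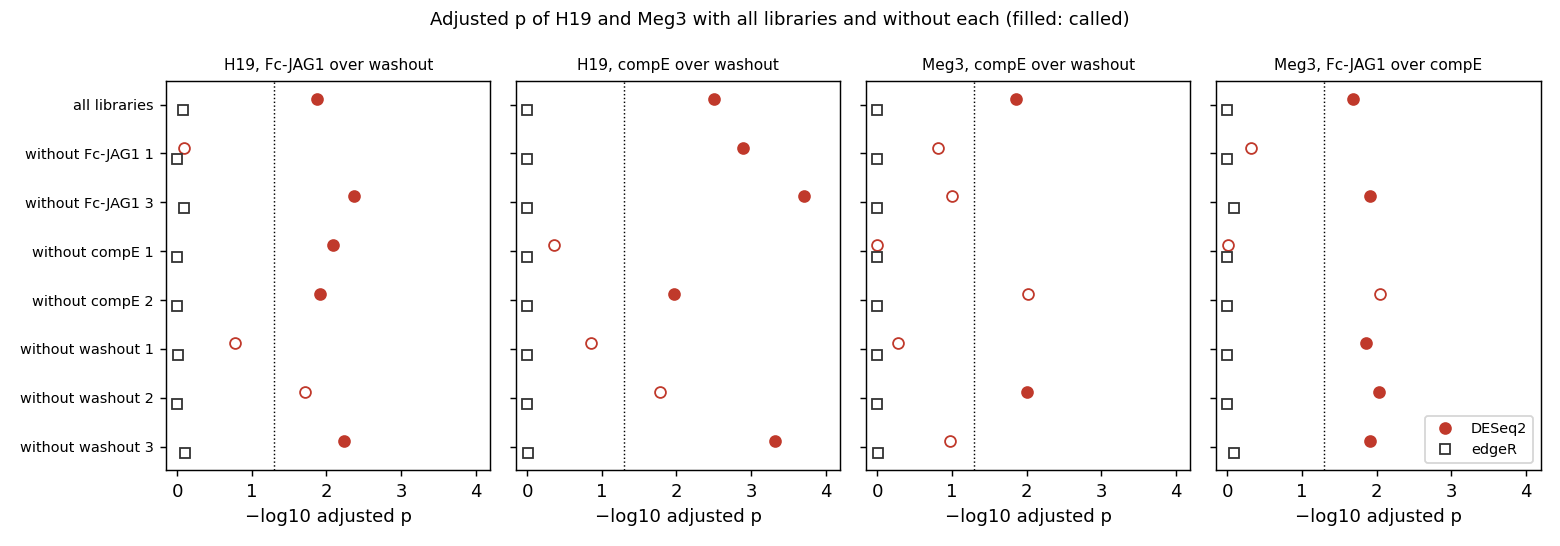
Adjusted p as −log10 for H19 and Meg3 with all 7 libraries and without each in turn, for edgeR (squares) and DESeq2 (circles); filled symbols are called and the dotted line is an adjusted p of 0.05. No edgeR point passes the line, and the DESeq2 calls of H19 are lost without washout 1 and without washout 2.

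The neighbors of H19 and Igf2 on distal chromosome 7 did not share its pattern. Cd81 and Tspan32, a pair of tetraspanins expressed in blood cells, and Nap1l4, a histone chaperone, reached 10 counts in every library, whereas Ins2 and Th had at most 4 and 1 counts. Phlda2, a maternally expressed gene that limits placental growth, had 1182 and 0 counts with Fc-JAG1, 0 and 0 with compE and 0, 329 and 0 in the washout. Slc22a18 had 2 and 423 counts with Fc-JAG1, 1 and 1 with compE and 0, 1 and 3 in the washout. Both were thus far above the floor in 1 or 2 libraries and near 0 in the rest.

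Meg3 was the only other member called by either test. This maternally expressed long noncoding RNA had 0 and 0 counts with Fc-JAG1, 3115 and 403 counts with compE and 0, 130 and 0 counts in the washout. It passed the filter through the compE group alone, where it was highest, so the values and calls below are a description of these libraries. The compE libraries, at 123 and 10.4 CPM (mean 66.8 ± 79.7 CPM, SD, n = 2), lay above all washout libraries, of which washout 2 alone had any (3.60 CPM), and above both Fc-JAG1 libraries. Set against a floor of 3 counts per library, Meg3 was at least 638-fold lower with Fc-JAG1 than with compE, and at least 99.3-fold lower without compE 1, which held 89.8% of its summed CPM. The Fc-JAG1 and washout libraries overlapped at 0.

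DESeq2 called Meg3 higher with compE than in the washout (log2 fold change 11.17, adjusted p = 0.0138) and lower with Fc-JAG1 than with compE (−12.97, adjusted p = 0.0204), where it called 5.66% of genes higher and 2.21% lower. CPM lay wholly above the washout with compE for 10.9% of genes and wholly below compE with Fc-JAG1 for 15.4%. By edgeR the log2 fold changes were 3.97 (SE 3.29, adjusted p = 1.00) and −13.44 (SE 8.14, adjusted p = 1.00), and −9.47 (SE 11.29, adjusted p = 0.992) for Fc-JAG1 over washout. The call of compE over washout was kept by DESeq2 without washout 2 (13.65, adjusted p = 0.0098) and lost without compE 1 (1.48, adjusted p = 1.00), washout 1 (5.31, adjusted p = 0.524), washout 3 (6.99, adjusted p = 0.106), Fc-JAG1 1 (7.06, adjusted p = 0.156) or Fc-JAG1 3 (6.99, adjusted p = 0.101), and with no replicate block (6.16, adjusted p = 0.375). Without compE 2 the fold was larger (13.68, adjusted p = 0.00964) and the call failed by the count rule alone. That of Fc-JAG1 over compE was lost without Fc-JAG1 1 (−6.84, adjusted p = 0.483) and without compE 1 (−2.26, adjusted p = 0.993), and without compE 2 (−14.51, adjusted p = 0.00896) by the count rule.

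Along the cluster of chromosome 12, the maternally expressed noncoding RNAs that follow Meg3 were low. Rian had 1 and 4 counts with Fc-JAG1, 30 and 617 with compE and 6, 18 and 3 in the washout, so that, like Meg3, it was highest in the compE libraries, but in compE 2 where Meg3 was highest in compE 1. Its log2 fold change for compE over washout was 4.52 by edgeR (SE 2.30), and it was called by neither test. Mirg had between 2 and 13 counts in all 7 libraries, and the paternally expressed Rtl1 and Dio3 had at most 1 and 0.

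Dlk1, the paternally expressed Notch ligand relative of the same cluster, was captured in 6 of 7 libraries. It had 1628 and 3091 counts with Fc-JAG1, 3141 and 3401 with compE and 12760, 2439 and 0 in washout 1, 2 and 3. The Fc-JAG1 libraries, at 44.7 and 131 CPM (mean 87.8 ± 61.0 CPM, SD, n = 2), and the compE libraries, at 124 and 87.8 CPM (mean 106 ± 25.8 CPM, SD, n = 2), fell inside the range of the washout, at 741, 67.6 and 0 CPM (mean 269 ± 410 CPM, SD, n = 3). The washout thus held both the highest and the lowest library, and no difference exceeded this spread. EdgeR's log2 fold changes were 1.04 (SE 5.54) for Fc-JAG1 over washout, −0.73 (SE 2.18) for compE over washout and 1.76 (SE 5.69) for Fc-JAG1 over compE, each with an adjusted p = 1.00. With no replicate block the first and the last turned negative, at −1.62 and −0.28, so no direction can be given for Dlk1. Meg3 and Dlk1, expressed from opposite parental chromosomes, were both above 100 counts in compE 1, compE 2 and washout 2, and in Fc-JAG1 1, Fc-JAG1 3 and washout 1 Dlk1 was captured with Meg3 at 0.

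Dlk1 had the highest mean CPM of the 10 genes (171 CPM, against 132 CPM for Grb10), a ranking that is not corrected for gene length and that turned without washout 1 (75.9 CPM against 154 CPM). The genes most like it over the 7 libraries were sought among all genes tested. The mean absolute difference of centered log2 CPM was smallest for Cnot10, a subunit of the CCR4-NOT deadenylase (0.298), Isca2, a mitochondrial iron-sulfur cluster protein (0.410), and Pbk, a mitotic kinase (0.435). Cnot10 had 4648 and 4202 counts with Fc-JAG1, 5139 and 5877 with compE and 17734, 2539 and 1 in the washout. All 3 shared the low value in washout 3 and high counts in washout 1, which is a description over 7 libraries.

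Grb10, an adaptor that binds the insulin and IGF1 receptors and restrains their signal, had 5709 and 38 counts with Fc-JAG1, 4662 and 3525 with compE and 2, 3332 and 11196 in washout 1, 2 and 3. This gave 157 and 1.61 CPM with Fc-JAG1 (mean 79.2 ± 110 CPM, SD, n = 2), 184 and 91.0 CPM with compE (mean 138 ± 66.0 CPM, SD, n = 2) and 0.116, 92.3 and 399 CPM in the washout (mean 164 ± 209 CPM, SD, n = 3). The groups overlapped, and the washout again held the highest and the lowest library. The log2 fold changes by edgeR were −1.13 (SE 3.93), 0.05 (SE 3.08) and −1.18 (SE 2.66) for Fc-JAG1 over washout, compE over washout and Fc-JAG1 over compE, none of them called by either tool. Washout 1, with almost no Grb10, was the library with the most Dlk1 and H19, and washout 3, with the most Grb10, had no Dlk1 and 2 counts of H19.

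On either side of Grb10 on chromosome 11, Ddc encodes the decarboxylase that makes dopamine and serotonin and Cobl an actin nucleator. Ddc had 7 and 7 counts with Fc-JAG1, 2 and 22 with compE and 37, 926 and 2956 in the washout, all washout libraries above all others by count. DESeq2 called it lower with Fc-JAG1 (log2 fold change −6.14, adjusted p = 0.0052) and with compE (−5.96, adjusted p = 0.0165), and edgeR called neither (−7.25, SE 4.72, and −5.44, SE 4.26). Ddc passed the filter through the washout alone, as H19 did, so these calls are a description. Cobl had 12 and 1942 counts with Fc-JAG1, 14 and 174 with compE and 58, 22 and 289 in the washout and was not called.

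The remaining 4 members with any count failed the filter, and each reached 10 counts in 1 or 2 libraries. Cdkn1c, the CIP/KIP inhibitor p57 that holds stem cells out of the cell cycle, had 980 counts in compE 1 (38.8 CPM) and 0 in the 6 other libraries. Peg3, a zinc finger protein that marks stem cells of several adult tissues, had 1 and 2 counts with Fc-JAG1, 1 and 660 with compE (17.03 CPM in compE 2) and 0 in all 3 washout libraries. Neither gene can be read as higher with compE, since compE 2 had 0 counts of Cdkn1c and compE 1 had 1 count of Peg3, both under the floor of 3 counts.

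Igf2r, the receptor that carries IGF2 to the lysosome, had 970 and 1 counts with Fc-JAG1, 6 and 1 with compE and 0, 93 and 8 in the washout. Fc-JAG1 1 thus held 89.4% of its summed CPM. Airn, which overlaps it on the other strand, had 545 and 10 counts with Fc-JAG1, 2 and 38 with compE and 1, 5 and 19 in the washout from its free bases, again with the most in Fc-JAG1 1, and DESeq2 called it higher with Fc-JAG1 (5.32, adjusted p = 0.0267). Airn passed the filter through the Fc-JAG1 group alone. Counts that ignore strand cannot tell a gene from its antisense partner outside their annotated overlap. Slc22a3, a cation transporter silenced by Airn in placenta, followed neither, at 2834 and 9 counts with Fc-JAG1, 302 and 4212 with compE and 13, 2902 and 11916 in the washout.

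Mest, an alpha/beta hydrolase gene that is paternally expressed, had 0 and 0 counts with Fc-JAG1, 0 and 15 with compE and 1, 1 and 0 in the washout, so it was at or near 0 throughout. Copg2, a coat protein gene that overlaps the end of Mest, had 543 and 8 counts with Fc-JAG1, 131 and 5134 with compE and 3, 899 and 1397 in the washout. Beside Peg3, its divergent neighbor Usp29 had 18 and 226 counts with Fc-JAG1, 13 and 61 with compE and 29, 96 and 3 in the washout, and Zim1 reached 12 counts in compE 2 alone, the library that held Peg3.

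**Figure D4:**
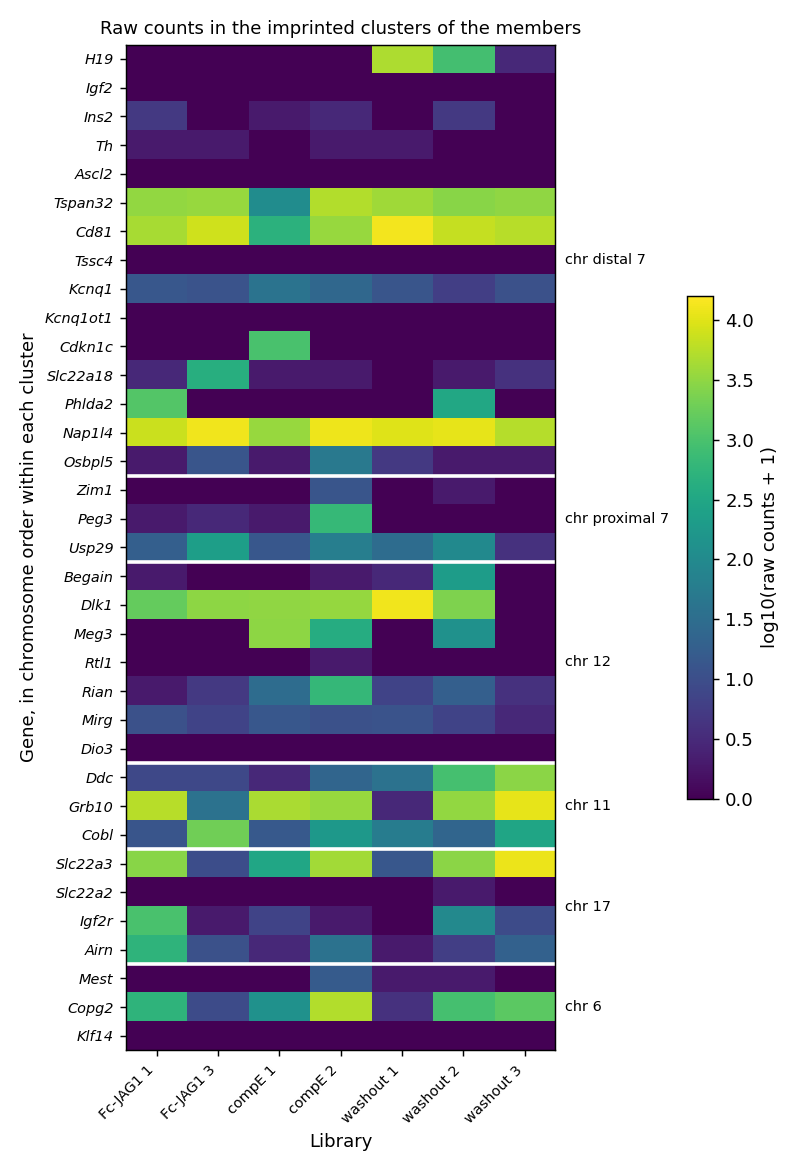
Raw counts as log10(counts + 1) of the genes listed in the imprinted clusters that hold the members, one row per gene in chromosome order and one column per library. Nap1l4, Cd81 and Tspan32 are captured in all 7 libraries, while H19, Meg3, Cdkn1c, Peg3 and Igf2r are each far above 0 in 1 to 3 of them.

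Most members were thus concentrated in a single library. The top library held 92.1% of the summed CPM of H19, 89.8% of Meg3, 89.4% of Igf2r, 61.9% of Dlk1, 43.1% of Grb10, all of Cdkn1c and 99.1% of Peg3, against a median of 41.4% over all genes tested (quartiles 31.8% and 55.8%). The filter removes genes seen in 1 library, so the members that failed it cannot be set against that median. The top library differed among the members: washout 1 for H19 and Dlk1, washout 3 for Grb10, compE 1 for Meg3 and Cdkn1c, compE 2 for Peg3 and Mest, and Fc-JAG1 1 for Igf2r.

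Of the other imprinted genes, 29 of 62 were tested, and edgeR called 0 of them in each comparison. With Fc-JAG1, DESeq2 called 4 higher (Blcap, Sgce, Pon2 and Airn) and 2 lower (Peg12 and Ddc), where it called 15.7% of all genes higher and 4.74% lower. Their median log2 fold change by edgeR was 0.41, against 0.44 over all genes. With compE it called 1 higher (Pon2) and 1 lower (Ddc), against 5.66% and 3.67% of all genes, with a median of −0.42 against −0.10. Sgce, epsilon-sarcoglycan, which is paternally expressed, had 833 and 5390 counts with Fc-JAG1, 1 and 1 with compE and 96, 1 and 2 in the washout (DESeq2 6.59, adjusted p = 0.0332). Peg12, also paternally expressed, went the other way, with 0 and 0 counts with Fc-JAG1, 590 and 649 with compE and 0, 628 and 6050 in the washout (DESeq2 −12.65, adjusted p = 0.0014). Blcap had 2501 and 406 counts with Fc-JAG1, 0 and 1299 with compE and 0, 3547 and 1 in the washout, so its groups overlapped. Sgce and Blcap passed the filter through the Fc-JAG1 group alone, so their calls are a description.

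The receptors and readers around the IGF genes were present. Igf1r, the receptor through which IGF2 signals, had 8576 and 5444 counts with Fc-JAG1, 8510 and 15706 with compE and 8598, 6658 and 10786 in the washout. Igf2bp1 and Igf2bp3, which bind Igf2 and H19 RNA, had at least 6721 counts in each library. Igf2bp2, by contrast, had 5160 and 12161 counts with Fc-JAG1, 260 and 5010 with compE and 286, 4884 and 124 in the washout, and DESeq2 called it higher with Fc-JAG1 (4.61, adjusted p = 0.0121). Of 19 tested IGF and insulin signaling genes, DESeq2 called 4 higher with Fc-JAG1 (Pik3ca, Shc1, Pik3r1 and Igf2bp2) and 1 with compE (Pik3ca), and none lower, against 15.7% of all genes higher with Fc-JAG1 and 5.66% with compE. The medians were 0.34 and 0.47, against 0.44 and −0.10 over all genes.

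Of 18 tested genes of imprint maintenance and insulation, 4 were called higher with Fc-JAG1 by DESeq2 (Smc1a, Tet2, Arid4b and Dnmt3a), none lower, and none with compE, against the same 15.7% and 5.66% of all genes called higher, with medians of 0.91 and 0.67. Ctcf, the insulator protein that binds the control region of H19 and Igf2, had 5134 and 138 counts with Fc-JAG1, 114 and 4616 with compE and 4114, 7041 and 8655 in the washout, and was not called (edgeR −1.80, SE 2.35, and −3.44, SE 2.98). Trim28, the corepressor that protects imprints, had between 5339 and 44866 counts, and its zinc finger partner Zfp57 at most 1. Of 11 tested CIP/KIP partners, the cyclins and kinases that p57 acts on and its relatives, DESeq2 called 3 higher with Fc-JAG1 (Ccna2, Ccne2 and Ccne1) and none with compE, beside the same 15.7% and 5.66% of all genes, with medians of 0.83 and −0.32. Cdkn1a, the relative p21 of p57, had 8216 and 3352 counts with Fc-JAG1, 1803 and 6135 with compE and 4018, 4397 and 11390 in the washout, and Cdkn1b had at most 3. EdgeR called 0 genes of these lists in any comparison. The median over all genes with Fc-JAG1 was 0.07 with the size factors of DESeq2, in place of 0.44.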

How the data were processed

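Nascent RNA of 7 libraries was analysed. By the study's methods, the authors trimmed reads with cutadapt 4.2, aligned them with STAR 2.7.8 to GRCm38, kept uniquely mapped reads and used featureCounts of Subread 2.0.1 to count reads per gene. The deposited raw counts are whole numbers for 55487 genes. The authors' filter leaves 10311. The log2 values deposited by the authors are a variance-stabilizing transformation by DESeq2 1.38.3 of the filtered counts, with a value of 6.51 at 0 counts, and were not tested. Fc-JAG1 2 was left out by the authors and is not analysed here. The authors' sources give compound and ligand amounts in units that differ, so none is printed.

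Symbols came from GENCODE M21 (55141 of 55487 identifiers matched). The main test was edgeR 4.0.16 (R 4.3.3; quasi-likelihood, TMM, terms for embryo number and condition, all 7 libraries, filtered genes, Benjamini-Hochberg, threshold 0.05), with a prior count of 2 for log2 CPM in the likeness measure. DESeq2 1.42.0, with its call rule of 10 counts in 2 replicates of either condition, no replicate block, other size factors, no filter and leaving out each library were alternatives. The study treats equal numbers as the same biological sample, and deviations of the 5 same-numbered pairs from their group means correlated at −0.0854 to 0.0915. Pairs with different numbers ran from −0.0964 to 0.0964, so these values do not show the pairing. Deviations in a group of 2 mirror each other, which ties the 2 ranges together. The sources leave unclear whether embryos were pooled, so p-values measure only the spread between these libraries, which may be technical. Reads carry no molecular identifiers, so floors cover counting error only. A floor of 3 counts is 0.0774 to 0.174 CPM, depending on the library. The code of both tests was run on simulated counts with known changes, which does not decide between the tools for these libraries. The members, lists and naming rule (all members, and of each list the genes highest in CPM or smallest in p, with others named by their role or DESeq2 call after their values were seen) were chosen with earlier results of these data known. Figures were drawn with matplotlib.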

Additional observations from a re-analysis of the deposited data

How the results depend on the processing

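Libraries numbered alike were fitted with a block in the main test, since the study treats them as the same biological samples. With no replicate block, edgeR called 1 gene for Fc-JAG1 over washout, Dlk1 turned to −1.62 for that comparison and to −0.28 for Fc-JAG1 over compE, and Grb10 turned to −0.26 for compE over washout. DESeq2 called 2108, 962 and 1175 genes for Fc-JAG1 over washout, compE over washout and Fc-JAG1 over compE, and 1, 2 and 1 members. DESeq2 with no replicate block called 388, 325 and 190 genes and 1, 1 and 1 members, with Dlk1 at −2.07 and −0.23 for Fc-JAG1 over washout and over compE, and Grb10 at −0.28 for compE over washout. Grb10 was at −0.034 there by DESeq2 with the block and at −0.0093 with its size factors in edgeR. Beside the DESeq2 call of Meg3 with compE, the block changed no member's call, and edgeR with the size factors of DESeq2 or with no filter called no member. The cause of these differences between tools was not tested.

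Leaving out each library in turn, edgeR called 0 genes in all 3 comparisons, and DESeq2 called 678 to 1937, 23 to 1240 and 92 to 1065 genes and 0 to 1, 0 to 1 and 0 to 2 members. By edgeR, Dlk1 then ran from −3.50 to 14.85, −1.61 to 2.87 and −2.39 to 15.96, and Grb10 from −7.95 to 3.57, −2.20 to 2.97 and −10.91 to 0.61. By DESeq2, Dlk1 ran from −4.23 to 14.26, −1.93 to 5.32 and −2.92 to 15.57, Grb10 from −7.98 to 5.36, −2.50 to 4.998 and −12.98 to 0.87, and Meg3 for Fc-JAG1 over washout from −7.04 to 0.22. H19 over washout, with Fc-JAG1 and with compE, and Meg3 for compE over washout and Fc-JAG1 over compE kept their sign. H19 was at 0 in all Fc-JAG1 and compE libraries, so no fold is given between these. Without Fc-JAG1 1, DESeq2 called Dlk1 higher with Fc-JAG1 than in the washout (adjusted p = 0.00292) and than with compE (adjusted p = 0.00543) and Grb10 lower than with compE (adjusted p = 0.0161), and without washout 1 it called Dlk1 higher with Fc-JAG1 than in the washout (8.54, adjusted p = 0.0232). At a minimum of 1 count, 4 members were detected in Fc-JAG1 3, 4 in washout 1 and 3 in washout 3, and at 100 counts 1 in Fc-JAG1 3.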
